A study of Mus musculus with 8 samples.

Results

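The amino acid transporters described here are the 66 genes, of 46078 in the count table, whose symbol starts with Slc1, Slc3, Slc6, Slc7, Slc36, Slc38 or Slc43, the names of the solute carrier families that move most amino acids across cell membranes. They were chosen by name alone, so genes of other roles came with them, among them carriers of monoamines and creatine, and 6 rows are described apart from the transporter groups. RNA of fully grown mouse oocytes at the germinal vesicle (GV) stage was sequenced in 8 libraries of 100 oocytes, 4 from CNOT7&8 KO and 4 from Zp3-Cre control females. Per the study's methods, the females were 4 weeks old and of C57BL/6J background, oocytes were collected 48 h after pregnant mare serum gonadotropin (PMSG), cumulus cells were stripped with hyaluronidase and pipetting, and GV oocytes were kept in medium with dibutyryl-cAMP, in both groups. KO females carried floxed Cnot7 and floxed Cnot8 together with Zp3-Cre, a Cre recombinase under the promoter of the zona pellucida gene Zp3, which is active in growing oocytes and not in the somatic cells around them. The labels name the controls only as Zp3-Cre, so both groups carried the recombinase, and how many animals gave the oocytes of a library is not given in the sources used here.

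CNOT7 and CNOT8 are deadenylase subunits of the CCR4–NOT complex, as are CNOT6 and CNOT6L. Deadenylases shorten poly(A) tails, a step that precedes the decay of many mRNAs and lowers the translation of others. A fully grown oocyte stores mRNA and makes almost none, so its mRNA levels depend on what was made and kept during growth. Growing oocytes take up some amino acids themselves and receive others through gap junctions from the granulosa and cumulus cells. These cells carry transporters that oocytes have little of.

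The targeted genes were checked in every library, in normalized CPM (read counts per 1000000 counts of the library, with library sizes scaled by edgeR's TMM factors). Cnot8 was at 197, 163, 157 and 154 CPM in control replicates 1 to 4 and at 33.1, 35.5, 35.9 and 36.1 CPM in KO replicates 1 to 4 (log2 fold change −2.25 ± 0.12 SE, adjusted p = 8.20e-08, edgeR). Cnot7 was at 1048, 900.0, 898 and 886 CPM in control and at 749, 788, 622 and 717 CPM in the KO (log2 fold change −0.38 ± 0.11 SE, adjusted p = 0.0105, edgeR). Neither gene's KO libraries overlapped its control libraries, and counts summed over a whole gene do not show whether the floxed exons were read. By immunoblotting, the study reported both proteins to be absent from KO oocytes. Total counts ranged from 8639444 in KO replicate 1 to 44092144 in control replicate 1, so that 3 counts, used as the floor of detection, stood for 0.326 and 0.0802 CPM in these libraries. The oocyte markers, 12 genes such as Zp3 and Gdf9, summed to between 16470 and 18990 CPM in control and between 14330 and 16410 CPM in KO libraries. Control replicate 1 and KO replicate 4 deviated from their groups in the same direction over all genes (r = 0.525 between the deviations). For several members, a value is also given without either or both of them.

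Of the 66 members, 51 passed the filter of at least 0.2 CPM in 2 or more libraries and were tested for differential expression. The other 15 had at most 2 counts in any library, and 5 of them had none. Differentially expressed genes (DEGs) were those with an adjusted p of at most 0.05 over all 19241 genes tested and at least a 2-fold change. In CNOT7&8 KO oocytes, 16 members (31.4% of those tested) were upregulated, against 23.8% of all genes tested, and 5 (9.80%) were downregulated, against 6.56% of all genes. By the adjusted p alone, 20 members were higher, where 31.2% of all genes were, and 10 were lower, where 24.1% of all genes were. Every KO library was above every control library for 14 members (27.5%, against 27.0% of all genes) and below for 10 members (19.6%, against 21.4%). The shares of members that changed were therefore near those of all genes. The median log2 fold change was 0.46 over the members tested and 0.12 over all genes, and it was 0.42 with the 2 members that had no count in any control library at their lower bound. Among the 286 other genes named Slc, 239 were tested, 28.9% were upregulated and 6.69% were downregulated. Of the 10 members that passed the filter only through KO libraries, 9 were upregulated, a direction that the filter favours. The 9 were Slc1a6, Slc6a3, Slc6a5, Slc6a8, Slc6a14, Slc7a3, Slc7a14, Slc7a15 and Slc36a4, and the other was Slc38a3.

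The cystine/glutamate exchanger gene Slc7a11 and the cationic amino acid transporter gene Slc7a2, the members with the most reads in control oocytes, both fell. The 16 upregulated members summed to only 27.4 ± 2.66 CPM in control and 124 ± 10.9 CPM in KO oocytes (SD, n = 4), which was 4.52 times as much, and the 5 downregulated members had sums of 1337 ± 140 and 572 ± 68.4 CPM. Both sets were picked by their change, so these sums are descriptions. Of the 5 tested glutamate transporters and neutral exchangers of the Slc1 family, 4 were upregulated, where 23.8% of all genes were, and none was downregulated. Slc1a6, among these, passed the filter only through KO libraries. All tested Slc1 members but Slc1a1 averaged under 10 CPM. At that level more of all genes were upregulated, 35.5% under 1 CPM and 35.7% from 1 to under 10 CPM. In samples of whole oocytes pooled in libraries, fewer cells with an mRNA and less of it per cell cannot be told apart. Normalized CPM is a share of the scaled library and not an amount per oocyte. The TMM factors were 0.849 to 0.943 in control and 1.07 to 1.14 in KO libraries. A change in total mRNA per oocyte was not measured, so the falls and rises given here are relative.

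**Figure D1:**
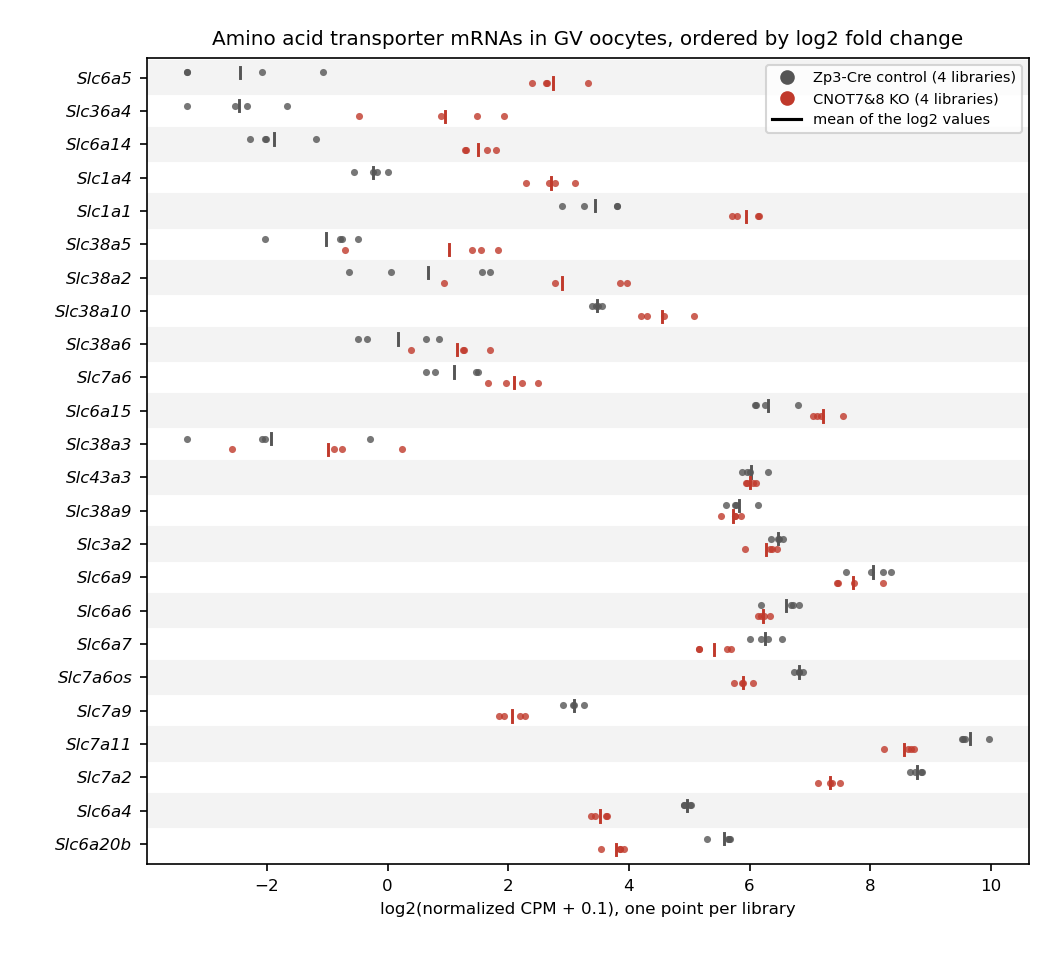
Normalized CPM of the 24 members with full values in each library, as log2 of CPM plus 0.1, with control libraries in grey and KO libraries in red and a bar at the mean of the 4 log2 values. The scarce members at the top lie to the right in KO oocytes, such as Slc6a5 at 5.16 CPM or more in each KO library against at most 0.374 CPM in control, while Slc7a11, Slc7a2, Slc6a4 and Slc6a20b at the bottom lie to the left with no overlap.

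The 3′ untranslated regions (3′UTRs) of the members were searched for TTTTAT, a form of the cytoplasmic polyadenylation element, the site through which CPEB1 sets the poly(A) tail length of stored oocyte mRNAs. The search covered the longest annotated 3′UTR of at least 50 bases on the mRNA strand only (GRCm38, GENCODE vM21), and the counts do not show which 3′ end the oocytes used. The sites below, the copy nearest the annotated end in each of 3 downregulated and 3 upregulated members, are shown because members that moved in opposite directions carried the same element. Capitals mark TTTTAT, with 12 bases on each side.
Slc7a11 (downregulated, chr3:50365904-50365933, minus strand): tgagtttgtaagTTTTATctaaatatttag
Slc7a2 (downregulated, chr8:40920059-40920088, plus strand): tctagttttaatTTTTATcaagtatttcta
Slc6a20b (downregulated, chr9:123591935-123591964, minus strand): gttttcagtctgTTTTATgcataaattaaa
Slc1a1 (upregulated, chr19:28913758-28913787, plus strand): gttgaatggataTTTTATttaggagtggat
Slc6a14 (upregulated, chrX:21742322-21742351, plus strand): caccaataaaaaTTTTATatcctgttttcc
Slc36a4 (upregulated, chr9:15743101-15743130, plus strand): aggaaacaaagaTTTTATatattgactctt

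The 3′UTR of Slc7a11 held 14 copies in 7364 bases, the one shown lying 978 bases before the annotated end. Slc7a2 held 4 copies, Slc6a20b 5, Slc1a1 7, Slc36a4 8 and Slc6a14 3. The copies shown of Slc6a14, Slc1a1 and Slc36a4 lay 16, 185 and 243 bases before the end, and those of Slc6a20b and Slc7a2 lay 1147 and 2232 bases before it. The window of Slc6a14 also held AATAAA, the polyadenylation signal. Among the DEGs with full values, no TTTTAT was found in the annotated 3′UTRs of Slc6a4 and Slc7a9 (downregulated) or Slc1a4 and Slc38a5 (upregulated). The scarcer upregulated members Slc1a5, Slc1a6, Slc6a3, Slc7a3 and Slc7a15 held none either.

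Over the 51 members tested, 28 (54.9%) held at least 1 TTTTAT, against 8535 (56.2%) of the 15185 tested genes with such a 3′UTR. The share was 9 of 16 (56.2%) among upregulated members, where it was 59.3% of all upregulated genes, and 3 of 5 (60.0%) among downregulated members, where it was 39.9% of all downregulated genes. Their 3′UTRs differed in length as well, with a median of 4193 bases for the 5 downregulated members and 860 bases for all downregulated genes, and longer regions hold more matches. The Pumilio element TGTAAATA was present in 19.6% of members tested and 11.8% of all genes, and ATTTA, the core of AU-rich elements, in 68.6% and 70.3%. A match of letters is a description and not a tested site.

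Slc3a2 (chr19:8706882-8723369, minus strand) encodes the heavy chain that brings several Slc7 light chains to the plasma membrane, among them those of the cystine/glutamate exchanger and of system L. It was at 81.8, 94.3, 89.0 and 89.5 CPM in control replicates 1 to 4 and at 81.0, 88.1, 82.8 and 60.9 CPM in KO replicates 1 to 4. The groups overlapped and the difference did not pass the test (log2 fold change −0.18 ± 0.13 SE, adjusted p = 0.244, edgeR), and its sign turned under other scalings. The other heavy chain gene, Slc3a1, was low in both groups, at 0.805 ± 0.183 CPM in control and 0.414 ± 0.225 CPM in KO oocytes (SD, n = 4), and had no call (adjusted p = 0.0997, edgeR).

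Slc7a11 (chr3:49892526-50443614, minus strand), the light chain that takes up cystine, the precursor of glutathione, in exchange for glutamate, was the member with the highest level. It was at 1001, 746, 735 and 763 CPM in control replicates 1 to 4 and at 408, 393, 300.0 and 423 CPM in KO replicates 1 to 4. All KO libraries lay below all control libraries, and the gene was downregulated to 47.0% of its control mean (log2 fold change −1.09 ± 0.14 SE, adjusted p = 4.44e-05, edgeR; exact permutation p = 0.0286, the smallest that 70 assignments can give). It stayed lower without control replicate 1, the highest library, but then by less than 2-fold, with a log2 fold change of −0.97. The same held without KO replicate 3, its lowest library, with −0.96.

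Slc7a9 (chr7:35448796-35466036, plus strand), the light chain that pairs with Slc3a1 to move cystine and dibasic amino acids, was a scarcer DEG in the same direction. It was at 8.42, 8.34, 7.41 and 9.47 CPM in control and at 3.69, 4.78, 4.50 and 3.51 CPM in KO libraries. The groups did not overlap (log2 fold change −1.03 ± 0.18 SE, adjusted p = 0.000478, edgeR), but the change was close to 2-fold and fell under it in several alternatives. Without control replicate 1 and KO replicate 4 the log2 fold change was −0.94 (adjusted p = 0.00139, edgeR). Slc7a15 passed as upregulated on 1, 8, 4 and 9 counts in the KO libraries, with at most 1 count in a control library. Slc7a10, Slc7a12 and Slc7a13 were not tested.

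The system L genes, whose products carry large neutral amino acids such as leucine, held no DEG. By the adjusted p alone, Slc7a5, the system L light chain of Slc3a2, was higher, at 21.5 ± 2.79 CPM in control and 27.9 ± 1.87 CPM in KO oocytes (SD, n = 4; log2 fold change 0.37 ± 0.13 SE, adjusted p = 0.0328, edgeR), with no overlap. Slc43a1 was also higher under 2-fold, at 2.44 ± 0.981 and 4.74 ± 1.46 CPM, with overlapping groups (log2 fold change 0.91, adjusted p = 0.0281, edgeR). Slc7a8 and Slc43a2 had no call.

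Slc7a2 (chr8:40862396-40922308, plus strand) encodes a system y+ transporter of arginine, lysine and ornithine. It was at 465, 458, 404 and 426 CPM in control replicates 1 to 4 and at 161, 181, 140 and 164 CPM in KO replicates 1 to 4. The highest KO library was thus far under the lowest control library, and the gene was downregulated to 36.8% of its control mean (log2 fold change −1.44 ± 0.11 SE, adjusted p = 8.98e-07, edgeR), a call kept under all 19 settings tried, the reported one included. Slc7a1, the system y+ gene of most tissues, was at 17.1 to 20.6 CPM in control and 13.7 to 24.1 CPM in KO libraries and had no call (log2 fold change −0.08 ± 0.18 SE, adjusted p = 0.736, edgeR). The summed level of the 7 cationic transporter genes was 467 ± 29.9 CPM in control and 191 ± 14.9 CPM in KO oocytes, a sum that was mostly Slc7a2.

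The remaining cationic genes had fewer reads. Slc7a6, a y+L light chain, was at 2.67, 2.71, 1.63 and 1.46 CPM in control and at 5.54, 3.79, 3.08 and 4.60 CPM in KO libraries. The groups did not overlap, and the gene was higher with a log2 fold change of 0.96 ± 0.28 (SE; adjusted p = 0.0104, edgeR), just under the 2-fold threshold, which it passed under 10 of the other settings, at 1.01 with the replicate number as a block. Its relative Slc7a7 had no call (adjusted p = 0.399, edgeR). Slc7a14 was upregulated from 0.166 to 0.630 CPM on at most 20 counts in a library (adjusted p = 0.0122, edgeR). Slc7a3 passed as upregulated with 3, 9, 0 and 3 counts in KO libraries and none in control libraries, at least 1.42-fold higher over the floor of 3 counts in each control library.

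The Slc1 genes encode sodium-coupled glutamate and aspartate transporters and the neutral exchangers of the ASC type. Of the 5 tested members, 4 were upregulated (23.8% of all genes were), and Slc1a6 among them passed the filter through KO libraries alone. All but Slc1a1 averaged under 10 CPM, where 35.5% (under 1 CPM) and 35.7% (1 to under 10 CPM) of all genes were upregulated. The summed level of the family was 12.8 ± 3.17 CPM in control and 71.5 ± 11.1 CPM in KO oocytes (SD, n = 4), 5.61 times as high. Slc1a1 (chr19:28835049-28913960, plus strand), a neuronal and epithelial glutamate transporter, was at 13.8, 13.8, 7.35 and 9.47 CPM in control replicates 1 to 4. In KO replicates 1 to 4 it was at 52.3, 55.1, 71.2 and 70.5 CPM. Each KO library exceeded the highest control library more than 3-fold, and the gene was upregulated with a log2 fold change of 2.47 ± 0.21 (SE, adjusted p = 2.01e-06, edgeR). It shares 20919 bases with 4430402I18Rik on the opposite strand, and the strand setting of the counting is not given in the sources used here.

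Slc1a4 (chr11:20302180-20332713, minus strand), an exchanger of alanine, serine and cysteine, was at 0.909, 0.789, 0.748 and 0.583 CPM in control and at 6.30, 4.83, 6.72 and 8.51 CPM in KO libraries. It rose 8.70-fold without overlap (log2 fold change 3.08 ± 0.26 SE, adjusted p = 1.79e-06, edgeR). Slc1a5, the glutamine exchanger of the same type, rose from 0.274 to 1.57 CPM on 11 to 37 counts in each KO library (log2 fold change 2.40 ± 0.38 SE, adjusted p = 0.000214, edgeR). Slc1a6 passed the test with 2, 5, 0 and 1 counts in KO libraries and none in control libraries, and no fold is given for it. Slc1a3, a glial glutamate transporter, had no call, at 0.484 and 0.914 CPM (adjusted p = 0.195, edgeR), and Slc1a2 and Slc1a7 were not tested.

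The Slc6 genes for glycine, proline and other neutral amino acids moved in both directions. Of 7 tested, 2 were upregulated (28.6%, against 23.8% of all genes) and 1 was downregulated (14.3%, against 6.56%). Another 1 was higher and 2 were lower under 2-fold. Both upregulated genes, Slc6a5 and Slc6a14, passed the filter only through KO libraries. Slc6a9 (chr4:117834506-117875198, plus strand) encodes the glycine transporter GLYT1, which early mouse embryos use for volume regulation. It was at 194, 326, 258 and 298 CPM in control replicates 1 to 4 and at 212, 178, 295 and 175 CPM in KO replicates 1 to 4. Slc6a9 shares bases with Ccdc24, B4galt2 and Gm17114 on the opposite strand. Its groups overlapped and no call was made (log2 fold change −0.32 ± 0.19 SE, adjusted p = 0.166, edgeR; exact permutation p = 0.229). Slc6a9 was lower under 2-fold by the adjusted p without control replicate 1, its lowest control library (log2 fold change −0.45, adjusted p = 0.0336, edgeR), or without KO replicate 3, its highest KO library (−0.50, adjusted p = 0.0404, edgeR). The other glycine transporter, Slc6a5 or GLYT2 (chr7:49910146-49963856, plus strand), was at 0.374, 0, 0.136 and 0 CPM in control and at 6.08, 5.16, 6.17 and 9.88 CPM in KO libraries. It had the largest increase among the members with a mean of at least 1 CPM (log2 fold change 5.28 ± 0.56 SE, adjusted p = 1.07e-05, edgeR), and yet per kilobase of transcript its mean KO level was 0.965 RPKM against 61.8 RPKM for Slc6a9. Without control replicate 1, its highest control library, the log2 fold change of Slc6a5 was 7.15, and it was 6.88 without KO replicate 4 as well. Control replicates 2 to 4 had 0, 2 and 0 counts, under the floor of 3 counts. The size of these 2 fold changes is therefore not measured by the counts.

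Slc6a15 (chr10:103367783-103419377, plus strand), a transporter of branched-chain amino acids and proline, was the abundant member that rose. It was at 111, 76.3, 68.6 and 68.2 CPM in control and at 139, 145, 132 and 186 CPM in KO libraries. The groups did not overlap, and the difference was under 2-fold (log2 fold change 0.89 ± 0.17 SE, adjusted p = 0.000868, edgeR) but over it without control replicate 1, at 1.08. Slc6a14 (chrX:21714896-21742355, plus strand), which takes up both neutral and cationic amino acids, was at 0.107, 0.148, 0.340 and 0.146 CPM in control and at 3.37, 2.36, 2.34 and 3.03 CPM in KO libraries. It was upregulated 15.0-fold (log2 fold change 3.97 ± 0.39 SE, adjusted p = 5.73e-06, edgeR).

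Both Slc6a7 and Slc6a20b were lower. Slc6a7 (chr18:60995380-61014222, minus strand), the high-affinity proline transporter, was at 63.9, 79.4, 72.7 and 92.8 CPM in control and at 49.5, 35.5, 51.9 and 35.6 CPM in KO libraries. The groups did not overlap (log2 fold change −0.84 ± 0.16 SE, adjusted p = 0.000977, edgeR). Slc6a20b (chr9:123590800-123632565, minus strand), of the imino acid transporter type, was at 39.2, 51.2, 50.7 and 49.9 CPM in control and at 15.0, 14.3, 14.4 and 11.5 CPM in KO libraries. It had the largest decrease among the downregulated members (log2 fold change −1.79 ± 0.14 SE, adjusted p = 1.41e-06, edgeR), and control replicate 1 was the lowest of its group. It shares 1801 bases with Sacm1l on the opposite strand. Slc6a17, Slc6a18 and Slc6a19 were not tested.

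Of the Slc6 genes for taurine, creatine, GABA, betaine and monoamines, Slc6a6 and Slc6a4 made up nearly all reads. Slc6a6 (chr6:91684053-91759066, plus strand), the taurine transporter, was at 113, 103, 73.0 and 105 CPM in control and at 75.9, 70.6, 72.9 and 80.5 CPM in KO libraries. It was lower under 2-fold by edgeR (log2 fold change −0.39 ± 0.14 SE, adjusted p = 0.0269), but control replicate 3 lay among the KO libraries and the exact permutation p was 0.0857. The adjusted p was 0.476 with library size only (log2 fold change −0.11), 0.346 with TMM factors from genes of at least 10 CPM and 0.0809 with upper quartile factors. It was also between 0.0574 and 0.0701 (edgeR) when control replicate 2 or 4 or KO replicate 1, 2 or 3 was left out. Slc6a4 (chr11:76998603-77032340, plus strand), the serotonin transporter, was at 30.04, 29.9, 32.2 and 32.7 CPM in control and at 10.2, 12.4, 10.8 and 12.2 CPM in KO libraries. It was downregulated to 36.5% of control with narrow spread in both groups (log2 fold change −1.45 ± 0.13 SE, adjusted p = 3.38e-06, edgeR).

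The dopamine transporter gene Slc6a3 and the creatine transporter gene Slc6a8 were upregulated from low levels, and both passed the filter only through KO libraries. Slc6a3 rose from 0.175 to 1.82 CPM on 16 to 57 counts in each KO library (log2 fold change 3.26 ± 0.51 SE, adjusted p = 0.000211, edgeR). Slc6a8 had 7, 13, 11 and 13 counts in KO libraries and at most 3 in a control library. Slc6a11, Slc6a12 and Slc6a13 had no call, and Slc6a2 was not tested.

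All 11 genes of the sodium-coupled neutral amino acid transporters (SNATs, Slc38) were tested. Of these, 4 were upregulated (36.4%, against 23.8% of all genes), none was downregulated (6.56% of all genes) and Slc38a7 was lower under 2-fold. By level, the upregulated share of all genes was 35.5% under 1 CPM, 35.7% from 1 to under 10 CPM and 12.7% from 10 to under 100 CPM. Slc38a9 (chr13:112660751-112738749, plus strand), a lysosomal transporter through which arginine is sensed by mTORC1, had the most reads among them and no call, at 70.2, 54.2, 54.8 and 49.0 CPM in control and 54.1, 53.9, 46.2 and 57.6 CPM in KO replicates 1 to 4 (log2 fold change −0.11 ± 0.13 SE, adjusted p = 0.511, edgeR). Slc38a7, a lysosomal exporter of glutamine and asparagine, was lower in every KO library, at 24.4 ± 2.56 CPM in control and 12.6 ± 0.735 CPM in KO oocytes (SD, n = 4; log2 fold change −0.96, adjusted p = 0.000102, edgeR). Slc38a10 (chr11:120103960-120151346, minus strand) was at 10.4, 10.9, 11.2 and 11.7 CPM in control and at 23.9, 19.7, 33.7 and 18.3 CPM in KO libraries. It was upregulated without overlap (log2 fold change 1.12 ± 0.19 SE, adjusted p = 0.000403, edgeR), and without its highest library, KO replicate 3, the log2 fold change was 0.92.

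The other upregulated SNAT genes varied widely among KO libraries. Slc38a2 (chr15:96687392-96699730, minus strand), the SNAT that many cells induce when amino acids are short, was at 3.13, 0.543, 2.86 and 0.947 CPM in control replicates 1 to 4 and at 15.6, 14.3, 6.78 and 1.80 CPM in KO replicates 1 to 4. KO replicate 4 lay among the control libraries, and the change passed edgeR's test (log2 fold change 2.29 ± 0.63 SE, adjusted p = 0.00826) with an exact permutation p of 0.0857. Without control replicate 1 and KO replicate 4 the log2 fold change was 3.11. Slc38a5 (chrX:8271133-8280179, plus strand) was at 0.481, 0.493, 0.612 and 0.146 CPM in control and at 2.82, 3.46, 2.53 and 0.511 CPM in KO libraries, again with KO replicate 4 among the controls (log2 fold change 2.34 ± 0.56 SE, adjusted p = 0.00352, edgeR; exact permutation p = 0.0571). Slc38a6 was at 0.615, 0.691, 1.70 and 1.46 CPM in control and at 2.28, 1.21, 3.14 and 2.32 CPM in KO libraries, with overlap (log2 fold change 1.06 ± 0.40 SE, adjusted p = 0.0397, edgeR; exact permutation p = 0.0857), and lost its call when any of 5 single libraries was left out. Without control replicate 1 and KO replicate 4 its log2 fold change was 0.80 (adjusted p = 0.128, edgeR).

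Slc38a3, a SNAT that cumulus cells express under the influence of the oocyte and that serves as a marker of them, was near the floor. It had 27, 0, 2 and 2 counts in control replicates 1 to 4 and 10, 8, 8 and 2 counts in KO replicates 1 to 4, which were 0.722, 0, 0.136 and 0.146 CPM and 1.09, 0.439, 0.493 and 0.0681 CPM. The groups overlapped and no call was made (log2 fold change 0.64 ± 0.90 SE, adjusted p = 0.568, edgeR). Without control replicate 1, its highest control library, and KO replicate 4, its lowest KO library, it passed as upregulated with a log2 fold change of 2.80 (adjusted p = 0.0127, edgeR), a choice made after its values were seen.

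Markers of granulosa and cumulus cells are given beside the SNAT genes, with no test of whether they moved together. The 13 genes of that list other than Slc38a3 summed to 187, 134, 153 and 155 CPM in control and to 322, 319, 248 and 229 CPM in KO libraries. Of the 12 tested, 7 were upregulated, where 23.8% of all genes were. The inhibin gene Inha was at 38.4, 34.1, 26.5 and 4.77 CPM in KO replicates 1 to 4, and the gap junction gene Gja1 at 44.2, 46.8, 28.1 and 10.8 CPM, so that KO replicate 4 was lowest for both of them, as it was for Slc38a2, Slc38a3 and Slc38a5. KO replicate 4 was also lowest for Fst (1.53 CPM), Inhba (1.63 CPM), Hsd17b1 (0.953 CPM) and Amhr2 (0.375 CPM). Nr5a2 was instead highest in KO replicate 4 (132 CPM). Kitl and Fshr were lowest in KO replicate 3 (30.3 and 2.90 CPM, against 40.1 and 3.34 CPM in KO replicate 4), as was Cyp19a1. Amh and Cyp11a1 were lowest in KO replicates 1 and 2. The control means of Inha and Gja1 were 6.86 and 7.85 CPM. The defining marker Foxl2 was at or near 0 in both groups, with at most 1 count in a library, and Cyp19a1 was lower in KO oocytes (58.4 and 31.3 CPM, adjusted p = 0.000507, edgeR). Markers of blood and immune cells, of which the 2 haemoglobin genes were at 0, summed to 0.829 to 1.83 CPM in control and 3.15 to 5.36 CPM in KO libraries, and those of theca and stroma to 2.99 to 5.61 and 3.02 to 5.04 CPM. Endothelium markers, mostly Pecam1, summed to 90.1 to 114 CPM in control and 74.2 to 88.5 CPM in KO libraries. The part of such cells in the increases of Slc38a2, Slc38a5 and the other scarce members was not tested.

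Of the proton-coupled transporters, Slc36a4 (chr9:15709738-15743361, plus strand) was at 0.214, 0.0987, 0 and 0.0728 CPM in control and at 3.69, 1.76, 0.617 and 2.69 CPM in KO libraries. It was upregulated without overlap (log2 fold change 4.10 ± 0.66 SE, adjusted p = 0.000233, edgeR), from at most 8 counts in a control library to between 10 and 79 in a KO library. Slc36a4 passed the filter only through KO libraries. Without control replicate 1 its log2 fold change was 4.98, and without KO replicate 4 as well it was 4.80. Control replicates 2 to 4 had 2, 0 and 1 counts, under the floor of 3 counts, so these sizes are uncertain. Slc36a1, a lysosomal and plasma membrane transporter of small neutral amino acids, had a higher level of 8.48 ± 1.22 CPM in control and 11.1 ± 3.0 CPM in KO oocytes and no call (adjusted p = 0.130, edgeR). Slc36a2 and Slc36a3 were not tested.

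**Figure D2:**
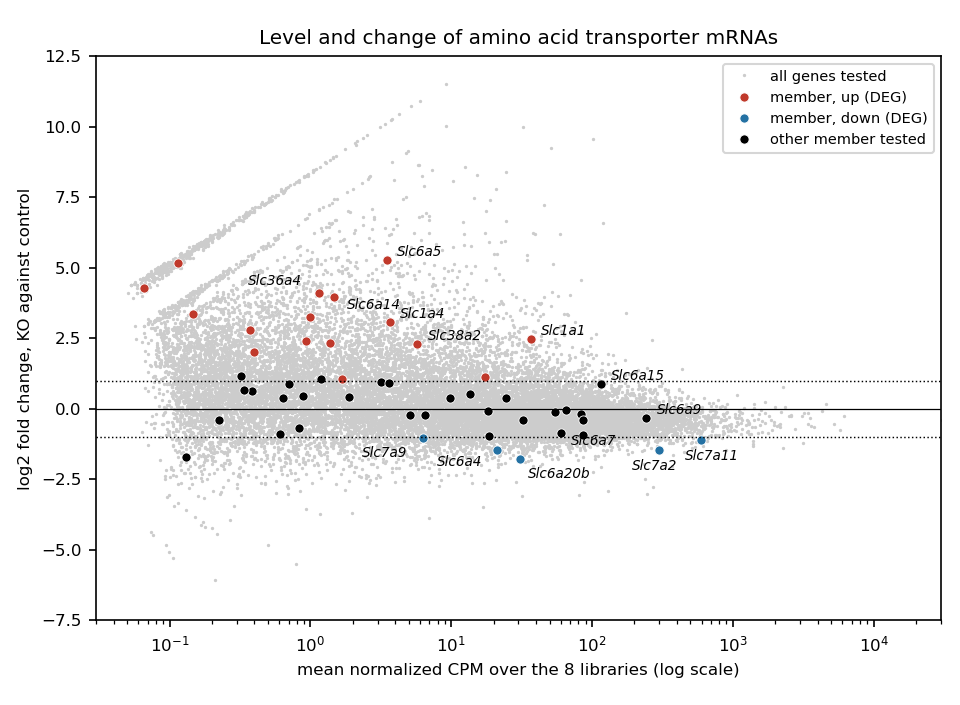
Log2 fold change of CNOT7&8 KO against control (y axis) by mean normalized CPM over the 8 libraries (x axis, log scale) for the 51 members tested, with upregulated members in red, downregulated in blue and others in black, over all 19241 genes tested in grey, and dotted lines at 2-fold. The upregulated members lie at up to 36.7 CPM (Slc1a1), and the downregulated ones reach 596 CPM (Slc7a11).

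The 6 rows described apart from the transporter groups held no DEG. Slc7a6os (chr8:106200717-106210935, minus strand), which lies next to Slc7a6 and encodes a protein related to a nuclear import factor of RNA polymerase II, was at 118, 106, 113 and 113 CPM in control and at 53.6, 66.6, 58.9 and 59.0 CPM in KO libraries. It was lower without overlap, just under 2-fold (log2 fold change −0.92 ± 0.11 SE, adjusted p = 2.24e-05, edgeR). Slc43a3 (chr2:84936579-84958509, plus strand), a transporter of purine bases, was at 78.6, 61.9, 58.6 and 63.9 CPM in control and at 61.2, 69.1, 61.8 and 66.6 CPM in KO libraries, with overlap and no call (log2 fold change −0.025 ± 0.12 SE, adjusted p = 0.874, edgeR). Slc6a16 had no call, and Slc6a19os, Slc36a3os and Slc36a1os were not tested.

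Several members that are neighbours on a chromosome changed in different directions or by different amounts, which was not tested between them. Slc7a6 and Slc7a6os are 2010 bases apart on chromosome 8 and had log2 fold changes of 0.96 and −0.92. Slc38a1 and Slc38a2 are 44478 bases apart on chromosome 15, with log2 fold changes of 0.42 (no call) and 2.29. Slc43a1 and Slc43a3 are 72984 bases apart on chromosome 2, with 0.91 and −0.025.

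Slc6a20a and Slc6a20b are 2204 bases apart on chromosome 9 and were both lower, by different amounts. Slc6a20a was at 36.8 ± 1.04 CPM in control and 27.7 ± 2.82 CPM in KO oocytes (SD, n = 4; log2 fold change −0.41 ± 0.12 SE, adjusted p = 0.0120, edgeR), whereas Slc6a20b fell by 1.79 on the log2 scale. The difference between the 2 changes was not tested. Their coding sequences are 91.5% identical over 1779 aligned bases, the next closest members, Slc6a12 and Slc6a13, being 73.9% identical, so the split of reads between Slc6a20a and Slc6a20b is uncertain.

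**Figure D3:**
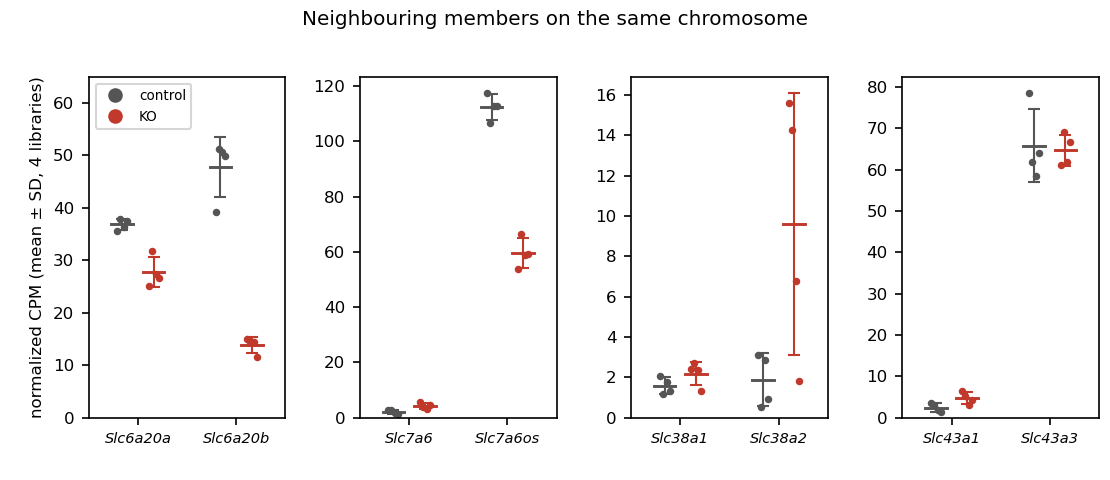
Normalized CPM of 4 pairs of members that are neighbours on a chromosome, with a point for each library, control in grey and KO in red, and the mean ± SD of 4 libraries. Each panel has its own axis from 0. Slc6a20b, Slc7a6os and Slc38a2 differ most between the groups in their panels, with means of 47.7 and 13.8, 112 and 59.5, and 1.87 and 9.62 CPM.

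The calls were also counted by level. Of the 16 upregulated members, 9 passed the filter only through KO libraries, all of them under 10 CPM, so the filter favours increases at low levels. Under 1 CPM (mean over the 8 libraries), 7 of 17 members were upregulated (41.2%, against 35.5% of all genes at that level) and none was downregulated (3.26% of all genes). From 1 to under 10 CPM, 7 of 15 were upregulated (46.7%, against 35.7%) and 1 was downregulated (6.67%, against 8.23%). From 10 to under 100 CPM, 2 of 15 were upregulated (13.3%, against 12.7%) and 2 were downregulated (13.3%, against 8.30%). At 100 CPM or more, none of 4 members was upregulated (1.58% of all genes) and 2, Slc7a11 and Slc7a2, were downregulated (50%, against 6.05%).

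**Figure D4:**
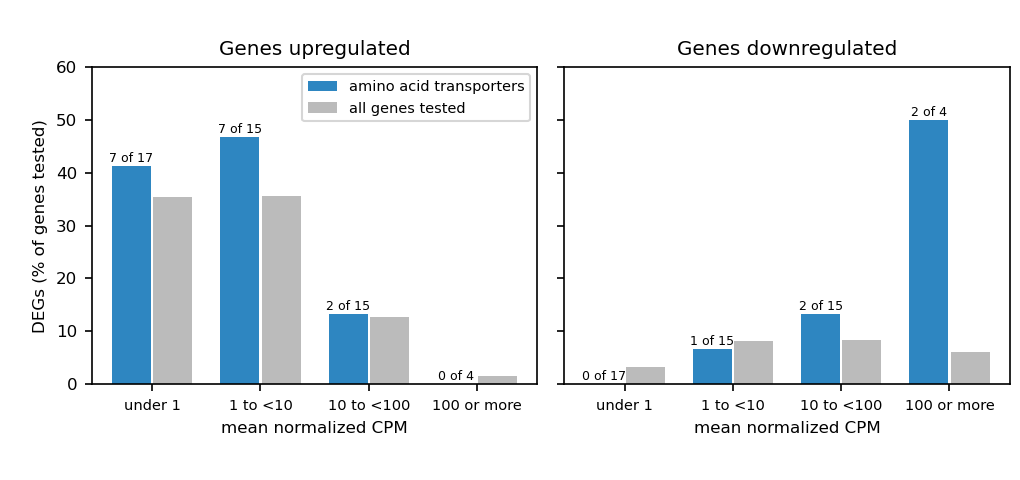
Percentage of genes called upregulated (left) and downregulated (right) in 4 intervals of mean normalized CPM, for the amino acid transporters (blue, with counts above the bars) and for all genes tested (grey). The share of upregulated members is 46.7% from 1 to under 10 CPM and 13.3% from 10 to under 100 CPM, next to 35.7% and 12.7% of all genes.

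Per kilobase of transcript, control oocytes held most of Slc7a11 (88.0 RPKM), Slc6a9 (77.3 RPKM) and Slc7a2 (55.4 RPKM) among the members, followed by Slc7a6os (37.99 RPKM) and Slc3a2 (31.5 RPKM). In KO oocytes, the mean level per length was highest for Slc6a9 (61.8 RPKM), followed by Slc6a15 (41.7 RPKM), Slc7a11 (41.3 RPKM), Slc3a2 (27.8 RPKM) and Slc43a3 (24.7 RPKM), with Slc7a2 at 20.4 RPKM. The order of the means thus differed between the groups, with Slc7a11 and Slc7a2 lower and Slc6a15 higher in KO oocytes. Slc6a15 and Slc7a11 differed by less than their spread in KO oocytes. Slc1a1 moved from 2.92 to 16.4 RPKM, and no other upregulated member exceeded 5.22 RPKM in KO oocytes (Slc38a10).

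The summed level of all 66 members was 2554, 2377, 2179 and 2327 CPM in control replicates 1 to 4 and 1581, 1556, 1561 and 1610 CPM in KO replicates 1 to 4. The KO libraries were all lower and close to each other, and their mean was 66.8% of the control mean, or 81.4% with library size as the only scaling. Members took 0.206% to 0.219% of the counts of control libraries and 0.169% to 0.178% of those of KO libraries. Without Slc7a11 and Slc7a2 the sums were 1110 ± 57.9 CPM in control and 1035 ± 60.1 CPM in KO oocytes (SD, n = 4), and the libraries overlapped. Slc7a11 took 34.3% ± 3.41 of the members' sum in control and 24.1% ± 3.30 in KO oocytes, and Slc7a2 took 18.6% ± 0.490 and 10.2% ± 1.09. Slc6a15 went from 3.41% ± 0.636 to 9.53% ± 1.41 of the sum.

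**Figure D5:**
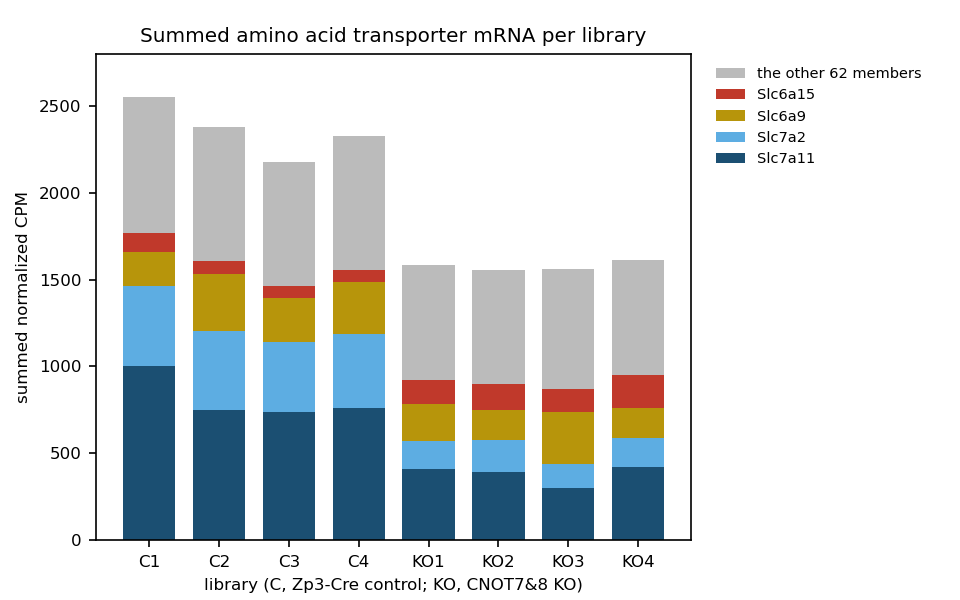
Summed normalized CPM of all 66 members in each library (C1 to C4, Zp3-Cre control; KO1 to KO4, CNOT7&8 KO), split into Slc7a11, Slc7a2, Slc6a9, Slc6a15 and the other 62 members. The sum lies between 2179 and 2554 CPM in control and between 1556 and 1610 CPM in KO libraries, and the bars of Slc7a11 and Slc7a2 are the ones that shrink most.

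Amino acid carriers of other families were read from a separate list of 20 genes, of which 18 were tested, 5 were upregulated (27.8%, against 23.8% of all genes) and 4 downregulated (22.2%, against 6.56%). Slc15a2, an oligopeptide transporter, rose from 39.5 ± 4.94 to 149 ± 13.95 CPM (SD, n = 4; log2 fold change 1.91 ± 0.13 SE, adjusted p = 3.21e-07, edgeR). Slc17a8, a vesicular glutamate transporter, fell from 4.48 ± 1.07 to 0.540 ± 0.239 CPM (log2 fold change −3.12 ± 0.32 SE, adjusted p = 8.84e-06, edgeR). Slc25a38, the mitochondrial glycine carrier, fell from 31.0 ± 8.71 to 11.2 ± 3.16 CPM (log2 fold change −1.47, adjusted p = 0.000484, edgeR). Ctns, the exporter of cystine from lysosomes, fell from 25.4 ± 2.24 to 12.6 ± 2.48 CPM (log2 fold change −1.01, adjusted p = 0.000292, edgeR).

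The machinery that reports amino acids to the kinase complex mTORC1 was read from a list of 33 genes, all tested, of which 4 were upregulated (12.1%, against 23.8% of all genes) and none was downregulated (6.56% of all genes), with 6 higher and 10 lower under 2-fold. The upregulated genes averaged 10.2 CPM or less in control oocytes. The Rag GTPase genes Rragb and Rragd rose from 0.309 ± 0.133 to 2.64 ± 0.283 CPM (log2 fold change 3.02, adjusted p = 1.37e-05, edgeR) and from 1.15 ± 0.225 to 6.13 ± 1.17 CPM (log2 fold change 2.37, adjusted p = 7.86e-06, edgeR). Gatsl2, the gene of CASTOR2, rose from 7.24 ± 1.09 to 20.8 ± 10.2 CPM (log2 fold change 1.52, adjusted p = 0.000917, edgeR), and the GATOR2 subunit gene Wdr59 from 10.2 ± 0.968 to 24.3 ± 2.31 CPM (log2 fold change 1.26, adjusted p = 1.89e-05, edgeR). The abundant Rag genes Rraga and Rragc were lower under 2-fold, at 179 and 114 CPM and at 504 and 341 CPM in control and KO oocytes (log2 fold changes −0.65 and −0.56, adjusted p = 0.000297 and 0.000677, edgeR).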

How the data were processed

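RNA of 4 Zp3-Cre control and 4 CNOT7&8 KO samples of 100 GV oocytes was analyzed, grouped and numbered by the labels. The authors mapped 150-bp pairs to GRCm38 with STAR 2.6.1d (nf-core/rnaseq) and deposited unnormalized counts per gene. The labels name a stranded total RNA kit with ribosomal RNA removal. The study's methods name a stranded mRNA kit and state that mRNA was purified through depletion of ribosomal RNA. The counting tool, annotation and strand setting are not given in the sources used here, so overlapping and antisense genes are uncertain. 

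From the deposited counts, normalized CPM and RPKM (per kilobase of the longest GENCODE vM21 transcript) were computed with TMM factors, and genes reaching 0.2 CPM in any 2 libraries were tested by the quasi-likelihood method of edgeR (R 4.3.3, edgeR 4.0.16, limma 3.58.1), with Benjamini-Hochberg adjustment over 19241 genes. Exact permutation tests, two-sided, used log2 of CPM plus 0.1. Sequences and figures used Python 3.11.15, pandas 2.3.3, Biopython 1.88 and matplotlib 3.10.9. Of the gene identifiers, 98.2% and all 66 members were found in the annotation. The test was checked on simulated data. Nothing says that samples were separate animals, so p-values measure the spread between these samples. No 2 libraries had the same counts within sampling noise.

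Members and gene lists were chosen with earlier results of these data known. Full values are given for DEGs averaging 1 CPM or more, the 10 members with the highest mean CPM, and Slc6a9, Slc7a6 and Slc38a3. Members outside this rule (Slc1a3, Slc1a5, Slc3a1, Slc6a3, Slc6a20a, Slc7a1, Slc7a5, Slc7a14, Slc36a1, Slc38a1, Slc38a7, Slc43a1) and Rraga, Rragc, Inha, Gja1, Fst, Inhba, Hsd17b1, Amhr2, Amh, Cyp11a1, Nr5a2, Kitl, Fshr, Foxl2 and Cyp19a1 were named after their values were seen. Replicate numbers do not pair the samples by animal, since the groups came from females of different genotypes. Whether same-numbered samples shared a batch is not given in the sources used here. Alternatives were edgeR's exact test, DESeq2 1.42.0, other scalings, filters and thresholds, exact family symbols, a replicate block, and leaving out libraries.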

Additional observations from a re-analysis of the deposited data

Results flagged for a closer look

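Slc7a11 in control replicate 1 was at 1001 CPM, apart from the other control libraries at 735 to 763 CPM. Slc6a20b in control replicate 1 was at 39.2 CPM, apart from the other control libraries at 49.9 to 51.2 CPM. The same library was thus the highest of its group for Slc7a11 and the lowest for Slc6a20b. In all, 48 groups of 4 libraries were screened for the named members, 2 stood apart, and chance gives about 2.4.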

How the results depend on the processing

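Depth limits the scarce members, since 3 counts correspond to up to 0.326 CPM. The count of 16 upregulated members was between 11 (at least 1 CPM in 4 libraries) and 20 (library size only) and within 1.5 times the reported one in all settings; it was 13 to 17 when 1 library was left out. The count of 5 downregulated members was 3 with library size only, with upper quartile factors and with TMM factors from genes of at least 10 CPM, 10 by the adjusted p alone, and 4 to 5 when 1 library was left out. These 3 scalings moved the median of all genes by 0.286, 0.101 and 0.254 (log2) and the upregulated share of all DEGs from 78.4% to 90.6%, 83.7% and 89.8%. The median log2 fold change of 0.46 was 0.76 with library size only, 0.72 with TMM from genes of at least 10 CPM, 0.25 with the stricter filter (34 members), 0.42 to 0.61 when 1 library was left out (0.61 without KO replicate 4), and 0.68 without control replicate 1 and KO replicate 4, left out together after seeing the data.

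Of the named members without a call, Slc3a2 turned to 0.099 and 0.064, Slc38a9 to 0.18 and 0.15, and Slc43a3 to 0.26 and 0.23 (log2) with library size only and TMM from genes of at least 10 CPM. Slc43a3 also turned with upper quartile factors (0.077), the stricter filter (0.047) and without control replicate 1 and KO replicate 4 (0.061). When 1 library was left out, Slc43a3 ranged from −0.076 to 0.074 and turned without control replicate 1, KO replicate 1 or KO replicate 3, and Slc38a9 ranged from −0.17 to 0.0070 and turned without control replicate 1. Slc7a11 fell by 0.81, 0.99 and 0.83 and Slc7a9 by 0.74, 0.93 and 0.78 under the 3 scalings named first, under 2-fold. Slc6a15 rose over 2-fold with 2 of them (1.19 and 1.16). The cause was not tested. With the replicate block, 17 members were upregulated and 5 downregulated, and Slc7a6 passed 2-fold. Same-numbered libraries deviated with r of −0.128, −0.0838, 0.207 and −0.238. Correlations of single libraries cannot show whether same-numbered libraries shared a batch, and the labels give none. Slc1a1, Slc1a4, Slc1a5, Slc6a5, Slc6a14, Slc6a3 and Slc38a2 (up) and Slc7a2, Slc6a20b and Slc6a4 (down) were called under all 19 settings. Of these, Slc6a3, Slc6a5 and Slc6a14 passed the filter only through KO libraries.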
